A study of Macaca mulatta with 24 samples.

Results

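The nucleus accumbens core (NAcc) of heavy-drinking rhesus macaques was compared with that of control animals. The comparison used 16 of the 24 animals in the series, 8 HD* and 8 control, all adult, male and unrelated, with 1 RNA-Seq library per animal. Animals were assigned by their labelled drinking category. The HD* group pooled 4 heavy drinkers (HD) and 4 very heavy drinkers (VHD), with average daily ethanol intakes of 2.74 to 3.78 g/kg. All animals had been trained on operant panels and taken through schedule-induced polydipsia, a food-interval procedure that establishes drinking. Drinkers then chose daily between water and a 4% ethanol solution for 12 months, whereas controls drew water from both spouts and received a maltose dextrin solution to match calories. No abstinence was imposed before necropsy, access to ethanol ended some hours before death, and per the study's methods little or no ethanol remained in the blood by then. The 8 low drinkers (LD*, 0.47 to 2.07 g/kg per day) entered the fit only to share the estimate of the spread between animals. Group and cohort overlapped in part: the HD* animals came from cohort 5 (4 animals) and cohort 7a (4 animals), and the controls from cohort 5 (3), cohort 7a (2) and cohort 7b (3).

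The NAcc is a part of the ventral striatum. Most of its neurons are GABAergic medium spiny projection neurons. These carry either the dopamine receptor DRD1 with the peptides TAC1 and PDYN, or DRD2 with PENK and the adenosine receptor ADORA2A. They receive glutamate from the cortex, amygdala, hippocampus and thalamus, and dopamine from the ventral tegmental area, and the core in particular is known for its role in cue-driven seeking of rewards, alcohol among them. Fibre tracts rich in oligodendrocytes border the core, so that a dissected sample can hold varying amounts of white matter.

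Levels are given as TPM, each transcript's length-adjusted share of its library. The defining markers of the tissue were present in every animal. The summed level of 9 striatal projection neuron markers ran from 750 to 11783 TPM in controls, with a median of 7017, and from 3440 to 10658 TPM in HD* animals, with a median of 7636. The lowest value was that of control 6, a cohort 7b animal. This library held 304 TPM of PPP1R1B (DARPP-32, the dopamine-regulated phosphatase inhibitor of medium spiny neurons), against 1051 TPM or more in each of the other 15 animals. DRD1 stood at 8.14 TPM in control 6, against 53.4 TPM in the next lowest animal, while MBP (myelin basic protein, 1497 TPM) and GFAP (the astrocyte filament protein, 6255 TPM) were higher there than in any other HD* or control animal. Its median correlation with the other libraries was 0.878, where the remaining 23 libraries lay between 0.930 and 0.978. The label of control 6 as NAcc core therefore rests on weak striatal markers, and the main counts are also given without it.

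Other cell types contributed to all libraries. The oligodendrocyte sum (5 markers) ran from 2403 to 8327 TPM in controls and from 2111 to 4594 TPM in HD* animals, the astrocyte sum (5 markers) from 1712 to 7292 and from 1212 to 5541 TPM, the microglial sum (5 markers) from 176 to 441 and from 182 to 403 TPM, and the endothelial and mural sum (4 markers) from 73.6 to 105 and from 68.5 to 114 TPM. Each of these ranges overlapped between the groups. The 4 markers of cortical excitatory neurons were low in most animals and high in a few of both groups, with sums from 1.87 to 395 TPM in controls and from 1.42 to 225 TPM in HD* animals. SLC17A7, the vesicular glutamate transporter of cortical neurons, exceeded 100 TPM in control 2 (348 TPM), control 7 (119 TPM) and HD* 7 (186 TPM). Choroid plexus markers (3) summed to at most 35.3 TPM among the controls and at most 29.1 among the HD* animals. Blood markers summed to at most 6.64 TPM in any of the 16 animals. Only 2 of the 4 blood markers listed were measured, and 1 of these averaged under 1 TPM, so this sum says little about blood content. In bulk tissue, fewer cells of a type and less RNA per cell cannot be told apart.

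**Figure D1:**
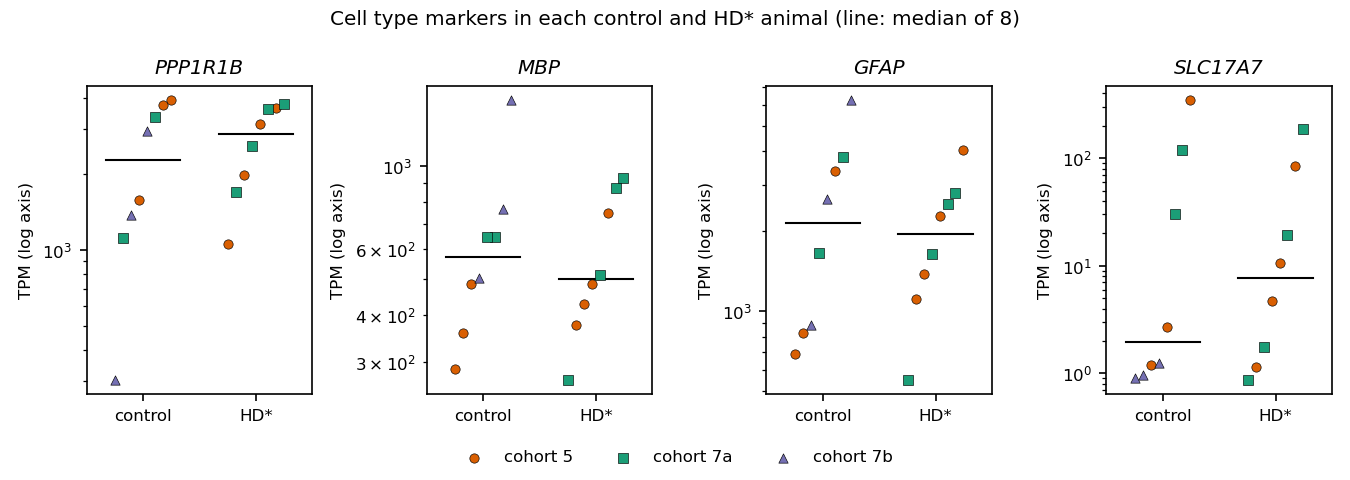
TPM (log axes) of PPP1R1B, MBP, GFAP and SLC17A7 in the 8 control and 8 HD* animals, 1 point per animal, shape and colour for the cohort and a line at the group median. Control 6 (cohort 7b) is the lowest point for PPP1R1B (304 TPM) and the highest for MBP (1497 TPM) and GFAP (6255 TPM), whereas the groups overlap in all 4 genes.

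No gene passed the test between HD* and control animals. Of the 9197 genes that averaged 10 TPM or more over the 24 animals, 0 had an adjusted p under 0.05 (limma on log2(TPM + 1), Benjamini-Hochberg adjustment over all 9197 genes), and the smallest adjusted p was 0.806. An unadjusted p under 0.05 was reached by 357 genes, 3.88% of those tested, of which 40 were higher (0.435%) and 317 lower (3.45%) in HD* animals. No gene had 8 HD* values that lay wholly above or wholly below the 8 control values (0% in each direction). The median standard error of a log2 fold change was 0.15. For 58.7% of the genes the 95% confidence interval lay within 0.5 log2 units of no difference, and for 96.7% within 1 log2 unit.

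The surplus of lower genes differed with expression level and with the scaling of the libraries. Over all genes the median log2 fold change was -0.095, and 6808 genes were lower against 2389 higher (26.0%), by sign and with no test. Among the 3865 genes between 10 and 30 TPM the median was -0.15 and 86.1% were lower, whereas among the 565 genes at 300 TPM or more it was 0.059 and 35.4% were lower. Rescaling by TMM (trimmed mean of M-values), which sets the bulk of genes rather than the total equal between animals, moved the median of all genes upward by 0.13. The 342 genes at an unadjusted p under 0.05 (3.72%) then divided into 271 higher (2.95%) and 71 lower (0.772%), and 59.3% of all genes were higher by sign. With TMM and cohort together 278 genes (3.02%) divided into 221 higher (2.4%) and 57 lower (0.62%), with 56.2% of all genes higher by sign. No gene passed the adjusted test on that scale either (smallest adjusted p = 0.913, limma). For this reason the plot of list medians gives 32 lists relative to the median of all genes, a difference that the rescaling hardly moves.

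Single animals moved the count of 357. Leaving out HD* 8 gave 129 genes, and leaving out HD* 4 gave 1145. The count came to 180 without control 5, 187 without HD* 6, 226 without HD* 1 and 732 without control 8. In each of the 16 fits with 1 animal left out 0 genes passed the adjusted test, with 0.339 as the smallest adjusted p (limma, Benjamini-Hochberg). HD* 8 had the smallest TMM factor of all libraries (0.698) and the highest score for cytosolic ribosomal proteins (0.81, the mean over the list of each gene's log2(TPM + 1) centred on the 24 animals). Without control 6 there were 263 genes at an unadjusted p under 0.05 (2.86%), 32 higher (0.348%) and 231 lower (2.51%), without control 6 and HD* 8 there were 115 (1.25%), 30 higher (0.326%) and 85 lower (0.924%), and without the 3 animals above 100 TPM of SLC17A7 there were 227. These exclusions were chosen after seeing the data.

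**Figure D2:**
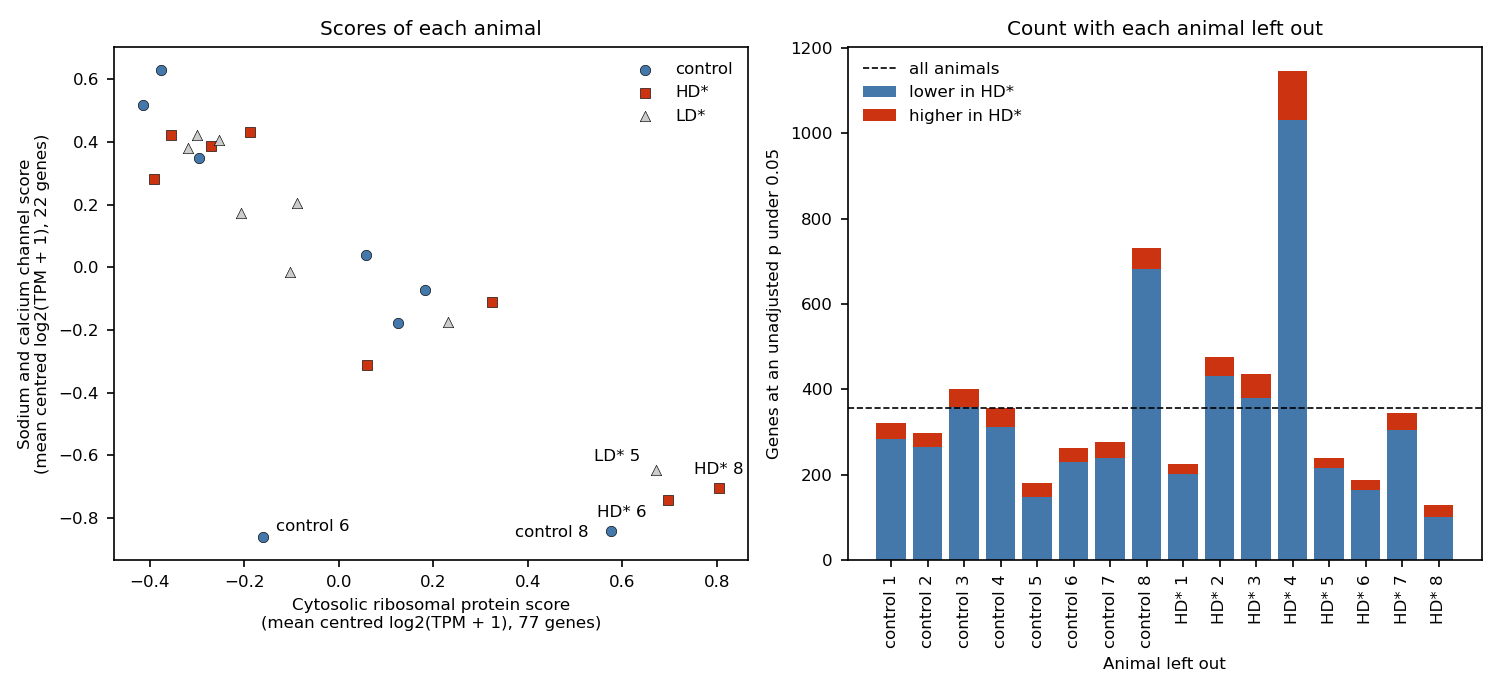
Left, the sodium and calcium channel score (22 genes) against the cytosolic ribosomal protein score (77 genes) of each of the 24 animals, in log2(TPM + 1) units centred on the animals, with circles for control, squares for HD* and triangles for LD*. Right, the number of genes at an unadjusted p under 0.05 with each control or HD* animal left out, stacked as lower and higher in HD*, and a dashed line at the 357 genes found with all animals. Without HD* 8 the count is 129, and without HD* 4 it is 1145.

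Among the genes higher in HD* animals, PARD6A stood out by its separation. PARD6A encodes a cell polarity scaffold that joins atypical protein kinase C to CDC42. It ran from 30.6 to 39.7 TPM in controls with a median of 37.0, and from 37.1 to 48.8 TPM in HD* animals with a median of 43.5. All HD* animals but HD* 4 lay above the highest control, control 8. The log2 fold change was 0.26 (SE 0.078, 95% interval 0.097 to 0.42, adjusted p = 0.806, limma). It was 0.26 without control 6 and HD* 8, and 0.23 within each of cohorts 5 and 7a.

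HYI, which encodes a putative hydroxypyruvate isomerase, had the smallest p among the higher genes. Controls ran from 56.1 to 88.8 TPM (median 58.8) and HD* animals from 66.4 to 94.7 TPM (median 81.7). All 8 HD* animals exceeded the control median, but the groups overlapped because the cohort 7b controls 4 and 5 were high, and only HD* 5 and HD* 6 passed the highest control. Its log2 fold change was 0.35 (SE 0.10, adjusted p = 0.806, limma), and 0.38 and 0.53 within cohorts 5 and 7a. ARL6IP4, a splicing-associated protein, ran from 210.1 to 284 TPM in controls (median 239) and from 243 to 457 TPM in HD* animals (median 299). Of the HD* animals 5 lay above every control, HD* 6 and HD* 8 far above, and the other 3 lay among the controls. The log2 fold change was 0.38 (SE 0.13).

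GCHFR encodes the feedback regulator of GTP cyclohydrolase 1, the enzyme that commits GTP to tetrahydrobiopterin, a cofactor of dopamine synthesis. It ran from 30.6 to 96.8 TPM in controls (median 66.2) and from 54.7 to 136 TPM in HD* animals (median 105). The 4 HD* animals of cohort 7a and HD* 1 were above every control, while the other 3 of cohort 5 overlapped them. The log2 fold change was 0.53 (SE 0.18) over all cohorts, -0.050 within cohort 5 and 0.76 within cohort 7a. The other 6 of the 10 higher genes with the smallest p were HCFC1R1, which binds host cell factor (0.29), C3orf22 (1.29, with 0 TPM in control 6 and no more than 37.3 TPM in any animal), the C1q-like secreted protein C1QL2 (0.49), the RNA polymerase I subunit ZNRD1 (0.25), the mRNA export factor THOC6 (0.23) and the Ran-binding protein RANGRF (0.37). All 6 had a positive log2 fold change in both cohorts 5 and 7a, as did 1199 of all 9197 genes. The 6 were picked for a small p in a fit that held these animals, so the shared sign is no independent support.

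Among the genes lower in HD* animals, CFLAR had the smallest p of all 9197. CFLAR (c-FLIP) blocks the activation of caspase-8 at death receptors. It ran from 8.93 to 20.9 TPM in controls (median 14.6) and from 5.04 to 11.8 TPM in HD* animals (median 8.47). Every HD* animal lay below the control median, but control 6 and control 8 lay among the HD* values. The log2 fold change was -0.63 (SE 0.18, 95% interval -0.998 to -0.26, adjusted p = 0.806, limma), with -0.94 within cohort 5 and -0.31 within cohort 7a.

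The next 2 lower genes act on the actin cytoskeleton under the plasma membrane. MSN (moesin), which ties membrane proteins to actin, ran from 67.6 to 91.6 TPM in controls (median 73.3) and from 54.1 to 73.9 TPM in HD* animals (median 60.0). FMNL2, a formin that elongates actin filaments, ran from 73.0 to 102 TPM in controls (median 79.5) and from 45.4 to 84.8 TPM in HD* animals (median 61.8). In both genes 7 of the 8 HD* animals lay below every control, and the exception was HD* 4. Their log2 fold changes were -0.28 (SE 0.082) and -0.40 (SE 0.12), and -0.24 and -0.29 without control 6 and HD* 8.

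PPID, the HSP90 co-chaperone cyclophilin 40, ran from 30.4 to 47.9 TPM in controls (median 41.2) and from 18.8 to 46.7 TPM in HD* animals (median 27.9). Control 8 was the low control. HD* 3 and HD* 5 lay within the control range above its median, and HD* 1 lay within it below the median. IFNAR1, a chain of the type I interferon receptor, ran from 22.1 to 31.9 TPM in controls (median 26.5) and from 13.1 to 32.6 TPM in HD* animals (median 19.3). Of the HD* animals, 6 were below every control while HD* 4 was above every control. The log2 fold changes were -0.48 (SE 0.14) for PPID and -0.43 (SE 0.14) for IFNAR1. The other 5 of the 10 were the matrix proteoglycan PRELP (-0.39), the kinase NEK4 (-0.45), the lysosomal histidine and peptide transporter SLC15A4 (-0.48), acid ceramidase ASAH1 (-0.38) and the astrocytic sodium bicarbonate cotransporter SLC4A4 (-0.48). All 10 lower genes had negative values in cohort 5 and in cohort 7a, and on the TMM scale. They were picked for a small p in a fit that held the same animals, so these signs are no independent support. Over all genes, 3944 of 9197 were lower in both cohorts.

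**Figure D3:**
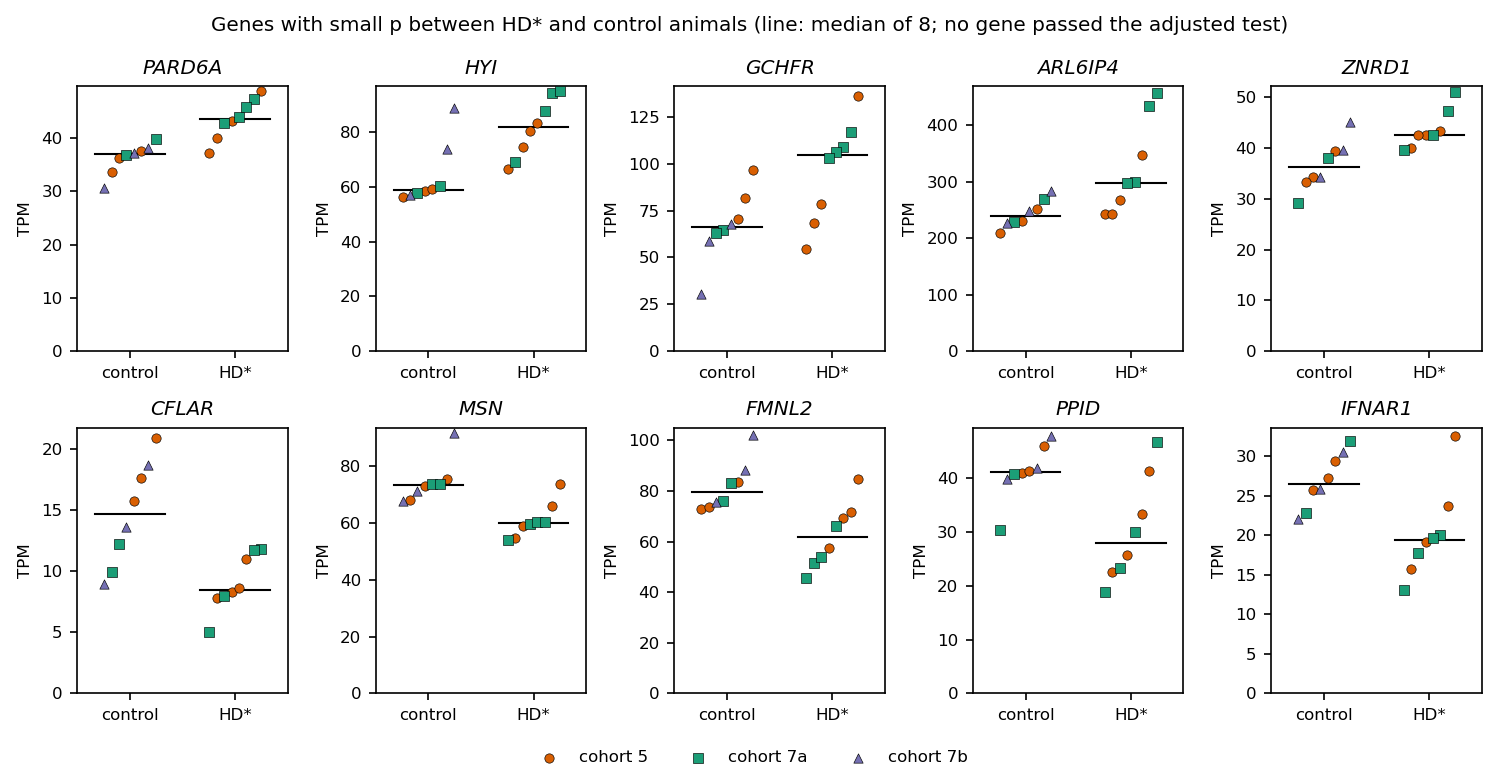
TPM of 5 genes higher (PARD6A, HYI, GCHFR, ARL6IP4, ZNRD1) and 5 lower (CFLAR, MSN, FMNL2, PPID, IFNAR1) in HD* animals, 1 point per animal, shape and colour for the cohort and a line at the median of each group of 8. The groups overlap in every gene. PARD6A has 7 of 8 HD* animals above all controls, and MSN and FMNL2 have 7 of 8 below them.

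Animals outside the control range were also counted. At least 6 of the 8 HD* animals lay above every control in 5 genes (0.0544% of those tested) and below every control in 68 (0.739%). At least 7 did so above in 1 gene, PARD6A (0.0109%), and below in 6 genes (0.0652%). Besides MSN and FMNL2 these were EPB41L2, a membrane skeleton protein, LIFR, the receptor chain for leukaemia inhibitory factor, the transcription factor NPAS3, and RFX5, a regulator of MHC class II genes, all named here because the count is small and after their values were seen. The eighth HD* animal was above every control for LIFR.

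With cohort as a covariate, 0 of 9197 genes passed the adjusted test (smallest adjusted p = 0.836, limma), and 232 had an unadjusted p under 0.05 (2.52%), 23 higher (0.25%) and 209 lower (2.27%). Over all genes the log2 fold change had a median of -0.11, with 23.9% of genes higher by sign. RCBTB2 had the smallest p in that fit. It ran from 9.39 to 17.9 TPM in controls (median 14.5) and from 7.37 to 12.7 TPM in HD* animals (median 10.6). All 8 HD* animals were below the control median, but only HD* 3 and HD* 8 were below control 6, the lowest control. Its log2 fold change was -0.50 with cohort (SE 0.13) and -0.38 without. HYI (0.39), PARD6A (0.22), ARL6IP4 (0.37) and ZNRD1 (0.30) were again among the 5 higher genes with the smallest p, joined by the centrosomal protein SSNA1 (0.32). The 5 lower genes were RCBTB2, CFLAR (-0.63), IFNAR1 (-0.46), ASAH1 (-0.38) and the kinase HIPK1 (-0.34).

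Cohorts 5 and 7a hold both groups and share no animal, so that the comparison could be made in each. Within cohort 5 (4 HD* against 3 controls) 146 genes had an unadjusted p under 0.05 (1.59%), 47 higher (0.511%) and 99 lower (1.08%). Within cohort 7a (4 against 2) 98 did (1.07%), 20 higher (0.217%) and 78 lower (0.848%), and 0 passed the adjusted test in either (limma). The lists had 4 genes in common, 2.74% of the first and 4.08% of the second. HYI was the one with the same direction in both. The other 3, named after their values were seen, had opposite signs: IFIT1B, of the interferon-induced IFIT family (3.12 in cohort 5 and -1.47 in cohort 7a), the nucleotide sugar hydrolase NUDT14 (-0.40 and 1.03) and spermine oxidase SMOX (0.60 and -0.68). Over all genes 55.9% had the same direction, and the log2 fold changes of the cohorts correlated with r = -0.13 and rho = -0.023 across 9197 genes, which are not independent replicates.

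The test of the difference between the cohorts (cohort 7a minus cohort 5) passed for 0 genes (smallest adjusted p = 1, limma), with 168 genes at an unadjusted p under 0.05 (1.83%), 27 with a higher value in cohort 7a (0.294%) and 141 with a lower one (1.53%). That count was 523 without control 7, 91 without control 3, 92 without control 8 and 110 without HD* 4. Without control 2, IFIT1B alone passed (-6.12, SE 0.54, adjusted p = 0.000836, limma). Median standard errors were 0.17 in cohort 5, 0.32 in cohort 7a and 0.36 for the difference, so that in cohort 7a only 0.522% of genes had an interval within 0.5 log2 units of no difference.

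**Figure D4:**
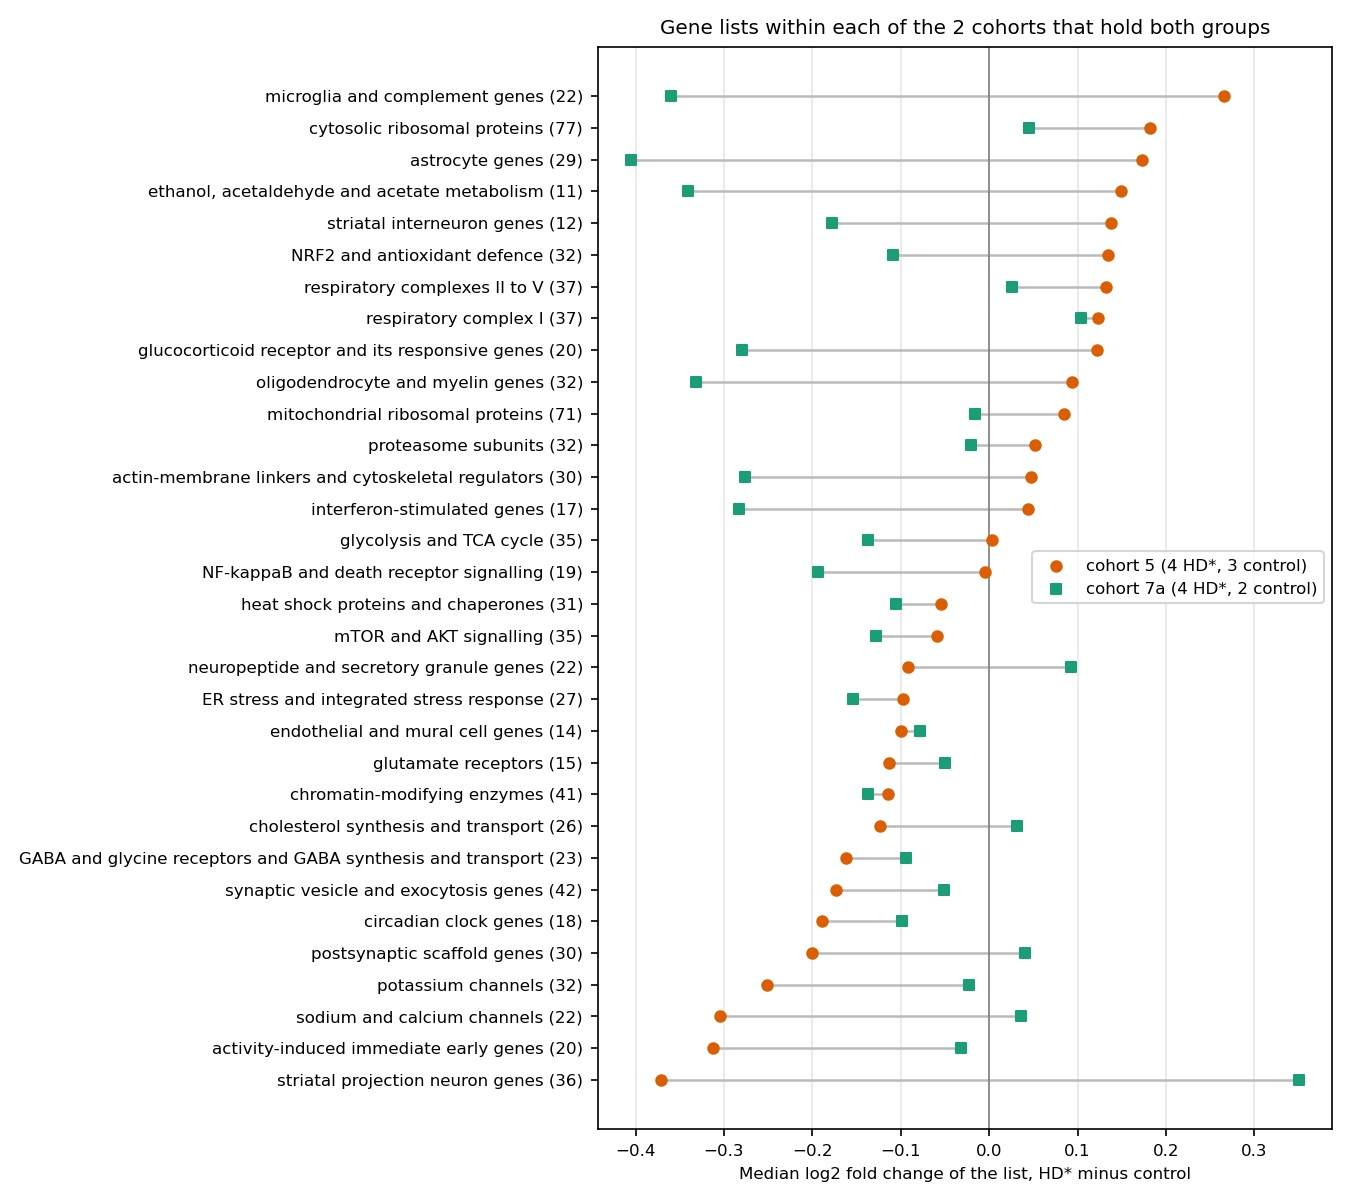
Median log2 fold change (HD* minus control) of each of 32 gene lists within cohort 5 (circles, 4 HD* and 3 control animals) and within cohort 7a (squares, 4 and 2), joined by a line, with the number of genes tested in brackets. Microglial, astrocyte and oligodendrocyte lists lie above 0 in cohort 5 and below 0 in cohort 7a, striatal projection neuron genes lie the other way, and both respiratory chain lists and the cytosolic ribosomal proteins lie above 0 in both.

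The gene lists are described below by the number of tested members that were higher or lower in HD* animals, with no test, beside 26.0% higher over all genes, and by their median log2 fold change. In each list 0 members passed the adjusted test. At an unadjusted p under 0.05, 3.45% of all genes were lower and 0.435% higher, and counts of list members stand beside those shares. The lists were not matched for expression level. Of all genes, 35.4% were lower at 300 TPM or more (median 0.059), and 86.1% between 10 and 30 TPM (median -0.15). Cytosolic ribosomal proteins, the core of the translation machinery, were higher for 76 of 77 members, with a median of 0.12 (0.22 above the median of all genes) and 0 members at an unadjusted p under 0.05. RPL35, the large-subunit protein with the largest log2 fold change of the list, ran from 1153 to 2291 TPM in controls (median 1583) and from 1333 to 3288 TPM in HD* animals (median 1623). HD* 6 and HD* 8 lay far above the rest while the other 6 HD* animals lay within the control range, and the log2 fold change was 0.26 (SE 0.21, 95% interval -0.17 to 0.70). The list median was 0.18 in cohort 5, 0.046 in cohort 7a and 0.20 with cohort as covariate, 0.11 without control 6 and 0.018 without HD* 8. Without both it was 0.00078, with 39 members higher and 38 lower.

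The ribosomal score divided the HD* group itself. The 4 VHD animals had scores of 0.32, 0.060, 0.70 and 0.81, and the 4 HD animals scores of -0.19, -0.27, -0.36 and -0.39. Controls spanned from -0.42 to 0.58 and so covered most of both. Across the 24 animals the score correlated with that of respiratory complex I (r = 0.91, rho = 0.87) and inversely with that of sodium and calcium channels (r = -0.84, rho = -0.84) and of chromatin-modifying enzymes (r = -0.86, rho = -0.60). These are descriptions over animals of 3 groups whose scores come from the same libraries. Ribosomal protein genes have many near-identical pseudogenes, and the authors counted uniquely aligned reads only, so the absolute level of single members is uncertain. Mitochondrial ribosomal proteins, encoded in the nucleus and used to make respiratory chain subunits, were higher for 43 of 71 members with a median of 0.040. MRPL34 (0.14), MRPL14 (0.24) and MRPS22 (-0.25) were the members with the smallest p.

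The subunits of the respiratory chain were higher for most members. Complex I, which passes electrons from NADH to ubiquinone, was higher for 33 of 37 members with a median of 0.098, and for 33 and 30 of 37 within cohorts 5 and 7a. NDUFB10, an accessory subunit, was its 1 member at an unadjusted p under 0.05. It ran from 463 to 612 TPM in controls (median 577) and from 545 to 793 TPM in HD* animals (median 642). Apart from HD* 4 and HD* 3, every HD* animal exceeded the highest control, and the log2 fold change was 0.26 (SE 0.10, 95% interval 0.048 to 0.47). It was 0.18 without control 6 and HD* 8. NDUFS3, a core subunit, had 0.24 (SE 0.12). The medians of complex I in those alternatives were 0.095 without control 6 and HD* 8 and 0.13 with cohort as covariate.

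Complexes II to V were higher for 29 of 37 members with a median of 0.10, which was 0.058 without HD* 8. Within cohort 5, 33 of the 37 were higher and within cohort 7a 19, with medians of 0.13 and 0.026. UQCRQ of complex III had 0.21 (SE 0.14). The 1 member at an unadjusted p under 0.05 was lower, the succinate dehydrogenase anchor SDHD (-0.20, SE 0.094, 28.9 to 40.0 TPM in controls and 26.0 to 33.2 TPM in HD* animals). Proteasome subunits divided into 17 higher and 15 lower with a median of 0.0064, and into 30 and 2 with a median of 0.14 after TMM rescaling. The median on the deposited scale was -0.013 without control 8. Glycolysis and the TCA cycle were lower for 29 of 35 members on the deposited scale, with a median of -0.078 that became 0.055 after TMM rescaling and lay 0.017 above the median of all genes. LDHB, a lactate dehydrogenase chain, had -0.22 (SE 0.12).

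**Figure D5:**
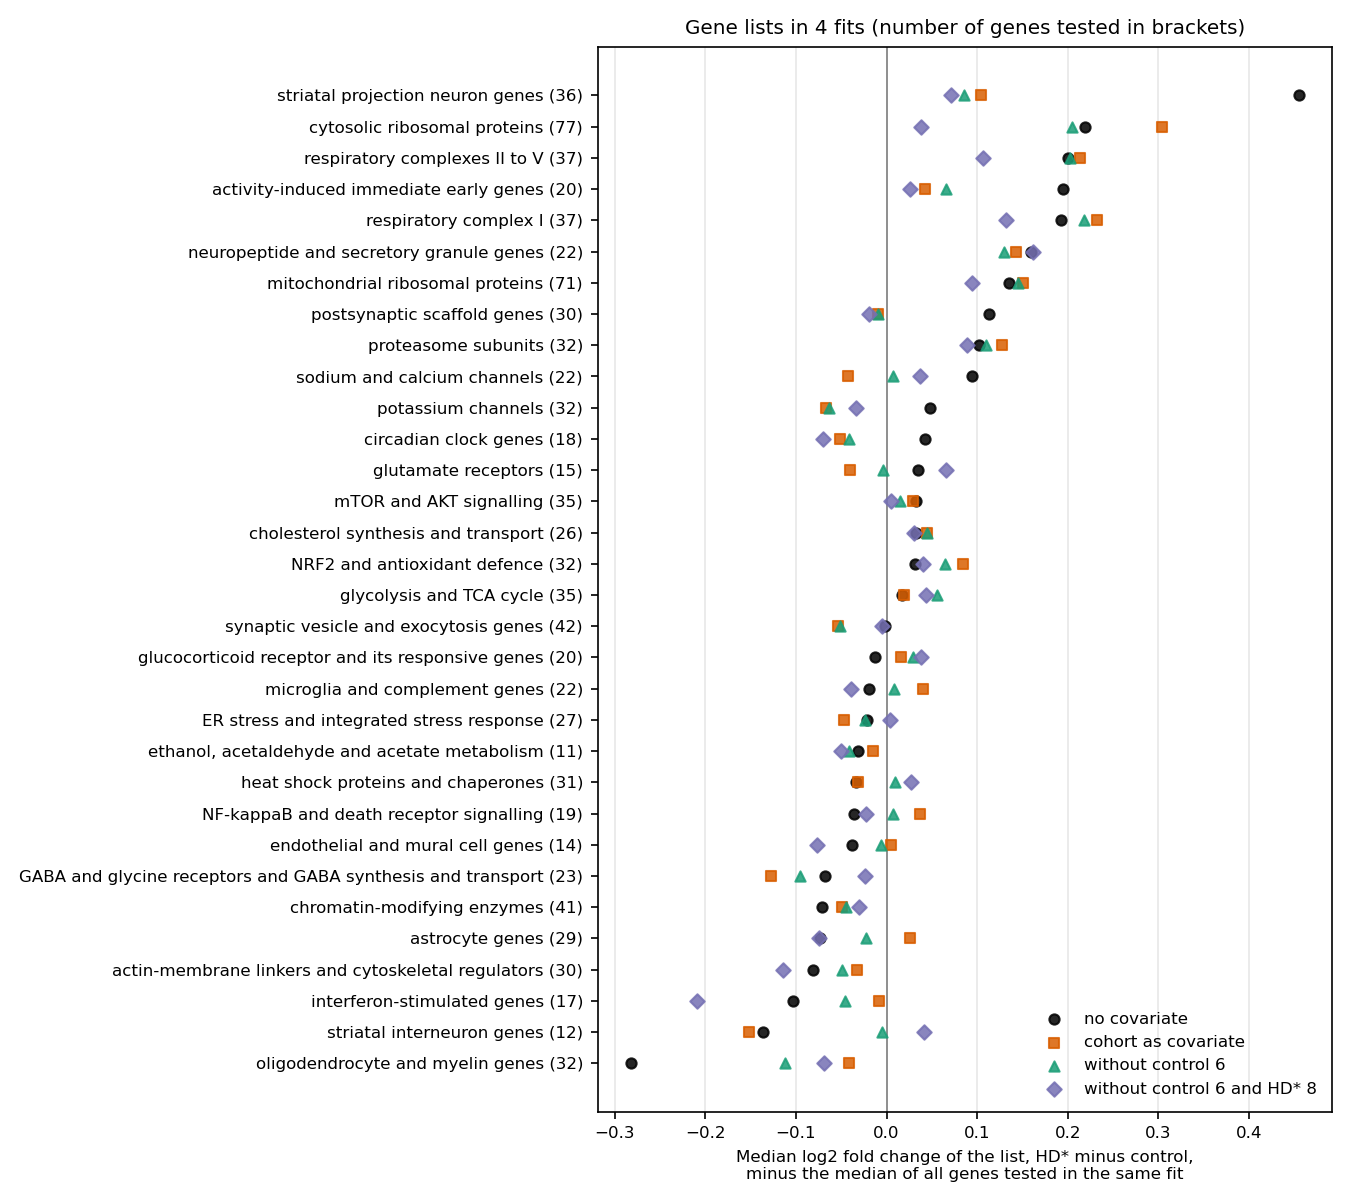
Median log2 fold change (HD* minus control) of each of 32 gene lists minus the median of all 9197 genes, in the fit without covariate (black circles), with cohort as covariate (squares), without control 6 (triangles) and without control 6 and HD* 8 (diamonds), with the number of genes tested in brackets. The striatal projection neuron value drops from 0.46 to 0.085 without control 6, the oligodendrocyte value moves from -0.28 to -0.11, and the cytosolic ribosomal value drops from 0.22 to 0.038 only when HD* 8 is left out as well.

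Protein folding and stress lists were lower in most members on the deposited scale, as were most genes. Heat shock proteins and chaperones were lower for 29 of 31 members with a median of -0.13, and -0.034 relative to all genes, and after TMM rescaling the median was 0.0048. PPID and HSPA2, a member of the HSP70 family (-0.47, SE 0.22), were at an unadjusted p under 0.05, and the mitochondrial chaperonin HSPD1 had -0.21 (SE 0.11). Genes of endoplasmic reticulum stress were lower for 24 of 27 (median -0.12, and 0.013 after TMM rescaling). The disulfide isomerase PDIA4 (-0.37, SE 0.15) was at an unadjusted p under 0.05, while the stress-induced factor MANF (0.14, SE 0.076) and the sensor ATF6 (-0.29, SE 0.17) were not. Antioxidant genes under NRF2 were lower for 23 of 32 (median -0.064, and 0.069 after TMM rescaling). NFE2L2, which encodes NRF2, ran from 59.0 to 98.8 TPM in controls (median 73.3) and from 41.9 to 101 TPM in HD* animals (median 55.5). Of the HD* animals 5 lay below every control, and HD* 4 lay above them all. Its log2 fold change was -0.36 (SE 0.16), 0.091 within cohort 5 and -0.66 within cohort 7a. Its target NQO1 had -0.51 (SE 0.25).

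The enzymes that handle ethanol, acetaldehyde and acetate did not separate the groups. Of 11 tested members 10 were lower, with a median of -0.13 (-0.032 relative to all genes, and 0.0060 after TMM rescaling). ALDH2, the mitochondrial enzyme that clears most acetaldehyde, ran from 315 to 865 TPM in controls (median 435) and from 311 to 640 TPM in HD* animals (median 448). The groups overlapped throughout and the log2 fold change was -0.071 (SE 0.18, 95% interval -0.45 to 0.30), with the opposite sign after TMM rescaling (0.064). ALDH3A2, a microsomal fatty aldehyde dehydrogenase, was the 1 member at an unadjusted p under 0.05. It ran from 35.3 to 53.4 TPM in controls (median 44.8) and from 27.2 to 52.8 TPM in HD* animals (median 32.8). HD* 4 was high and 5 HD* animals lay below every control, for a log2 fold change of -0.33 (SE 0.12). Within cohort 5 it was 0.041 and within cohort 7a -0.59. Catalase (CAT), which oxidizes ethanol in brain, had -0.29 (SE 0.21). The list median was 0.15 in cohort 5 and -0.34 in cohort 7a.

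Immune signalling lists were lower in most members. Interferon-stimulated genes were lower for 16 of 17 (median -0.20, and -0.066 after TMM rescaling). The death receptor ligand TNFSF10 (TRAIL, -0.43, SE 0.20) and the interferon transcription factor STAT2 (-0.36, SE 0.17) were at an unadjusted p under 0.05. With cohort as covariate 0 of the 17 members were. HD* 4 had the highest interferon score of the 16 animals (0.92), and the list median was 0.044 in cohort 5, which contains it, and -0.28 in cohort 7a. NF-kappaB and death receptor genes were lower for 17 of 19 (median -0.13, and -0.0043 after TMM rescaling). Besides CFLAR, 2 members were at an unadjusted p under 0.05, the kinase CHUK (IKK-alpha, -0.31, SE 0.12) and the adaptor TRAF3 (-0.38, SE 0.17). With cohort as covariate 2 of the 19 members were. Of all genes, 3.45% were lower at that p without cohort and 2.27% with it. Without control 6 the medians of the 2 lists were -0.14 and -0.090.

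Striatal projection neuron genes had the largest median of the 32 lists, 0.36, and were higher for 34 of 36 members, with 0 at an unadjusted p under 0.05. PPP1R1B ran from 304 to 3926 TPM in controls (median 2266) and from 1051 to 3797 TPM in HD* animals (median 2871). The HD* animals lay wholly within the control range. Its log2 fold change was 0.47 (SE 0.42, 95% interval -0.39 to 1.33), and 0.10 without control 6. RGS14, a regulator of G-protein signalling (0.69, SE 0.51), PENK (0.50, SE 0.46) and TAC1 (0.42, SE 0.32) came to 0.16, 0.10 and 0.051 without control 6. The list median was then -0.013, and it was -0.0020 with cohort as covariate, when 18 members were higher and 18 lower. Within cohort 5 all 36 members were lower (median -0.37) and within cohort 7a 32 of 36 were higher (median 0.35), on both occasions with no member passing the adjusted test.

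Interneuron genes were lower for 9 of 12 members (median -0.23, and -0.10 after TMM rescaling), with 0.0045 without control 6 and HD* 8. Glutamate receptors were lower for 10 of 15 (median -0.061, and 0.068 after TMM rescaling). GABA and glycine receptors, synthesis and transport were lower for 18 of 23 (median -0.16, and -0.032 after TMM rescaling). With cohort as covariate 13 of 15 and 20 of 23 were lower (medians -0.15 and -0.23), beside a median of -0.11 over all genes. The extrasynaptic GABA-A receptor subunit GABRD had 0.59 (SE 0.41), and 0.17 without control 6. No member of either receptor list had an unadjusted p under 0.05.

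Synaptic vesicle and exocytosis genes were lower for 34 of 42 (median -0.097, level with all genes, and 0.038 after TMM rescaling). With cohort as covariate 39 of 42 were lower (median -0.16), beside a median of -0.11 over all genes. SNAP25, a SNARE protein of vesicle fusion, ran from 647 to 1990 TPM in controls (median 1379) and from 594 to 1885 TPM in HD* animals (median 1202), almost the same range, and had a log2 fold change of -0.18 (SE 0.25). Postsynaptic scaffold genes divided into 16 higher and 14 lower (median 0.018), 22 and 8 after TMM rescaling (0.15), 7 and 23 with cohort as covariate (-0.12) and 5 and 25 without control 6 (-0.11). Sodium and calcium channels divided into 11 and 11 (median -0.0011, and 0.13 after TMM rescaling), with 3 higher and 19 lower with cohort, and their median ran from -0.12 without control 8 to 0.12 without HD* 8. Potassium channels divided into 13 and 19 (median -0.048, and 0.080 after TMM rescaling), with 7 higher and 25 lower with cohort, and their median ran from -0.16 without control 6 to 0.042 without HD* 8. The potassium channel gene at an unadjusted p under 0.05 was the glial KCNJ10 (-0.35, SE 0.16), and the T-type calcium channel CACNA1H had 0.24 (SE 0.19) with control 6 the lowest animal. Within cohort 5, 29 of 30 scaffold genes, 20 of 22 sodium and calcium channels and 27 of 32 potassium channels were lower, beside 37.5% of all genes higher. Within cohort 7a, beside 32.6% of all genes higher, the scaffold genes, the sodium and calcium channels and the potassium channels were higher for 18 of 30, 12 of 22 and 13 of 32. Neuropeptide and secretory granule genes were higher for 14 of 22 (median 0.064, and 0.20 after TMM rescaling) and for 12 of 22 with cohort. The median was -0.047 without control 8, 0.18 without HD* 8 and -0.091 within cohort 5.

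Glial lists were lower in most members. Oligodendrocyte and myelin genes were lower for 32 of 32 members, the largest negative median of the 32 lists (-0.38, and -0.24 after TMM rescaling). The transcription factor ST18 (-0.50, SE 0.23) was at an unadjusted p under 0.05, and UGT8, which makes the myelin lipid galactosylceramide, had -0.60 (SE 0.30). The list median was -0.21 without control 6, -0.15 with cohort as covariate, with 10 members higher and 22 lower, and 0.094 within cohort 5. Scores of the oligodendrocyte and striatal lists correlated with r = -0.50 and rho = -0.21 over the 24 animals.

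Astrocyte genes were lower for 28 of 29 (median -0.17, and -0.035 after TMM rescaling). SLC4A4, the water channel AQP4 and the transcription factor SOX9 (-0.30, SE 0.14) were lower at an unadjusted p under 0.05, beside 3.45% of all genes. With cohort as covariate 1 member was, beside 2.27% of all genes. By sign 9 of 29 members were then higher, beside 23.9% of all genes (medians -0.081 and -0.11). AQP4 ran from 180.3 to 361 TPM in controls (median 233) and from 119.7 to 419 TPM in HD* animals (median 169). HD* 4 was the highest animal of both groups while 4 HD* animals lay below every control, for a log2 fold change of -0.48 (SE 0.21). Microglial and complement genes were lower for 16 of 22 (median -0.12, and 0.017 after TMM rescaling). The microglial transcription factor SALL1 (-0.34, SE 0.16) was at an unadjusted p under 0.05, and the fractalkine receptor CX3CR1 had -0.35 (SE 0.20). In cohort 5, 24 of 29 astrocyte and 20 of 22 microglial genes were higher (medians 0.17 and 0.27), and in cohort 7a 25 and 19 were lower (medians -0.41 and -0.36). Endothelial and mural genes were lower for 12 of 14 (median -0.13, and -0.0049 after TMM rescaling), with the efflux transporter ABCG2 (-0.37, SE 0.17) at an unadjusted p under 0.05.

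Genes that link actin to the membrane or regulate the cytoskeleton were lower for 26 of 30 (median -0.18, and -0.046 after TMM rescaling). At an unadjusted p under 0.05, 4 members were lower and 1 higher, beside 3.45% and 0.435% of all genes. With cohort as covariate 2 were lower and 1 higher, beside 2.27% and 0.25% of all genes. The list, which holds MSN, was chosen with earlier results of these data known, so neither count is independent support. Within cohort 5, 19 members were higher and 11 lower (median 0.047), and within cohort 7a 26 of 30 were lower (median -0.28). The integrin linker talin, TLN1 (-0.26, SE 0.11), was lower along with MSN, and the actin-monomer-binding peptide TMSB10 was higher. The non-muscle myosin heavy chain MYH9 and the scaffold IQGAP1 were also lower, and are named outside the rule given below. TMSB10 ran from 1552 to 3581 TPM in controls (median 2503) and from 2553 to 5266 TPM in HD* animals (median 3061). All HD* animals lay above the control median, with HD* 1, HD* 6 and HD* 8 above every control, and the log2 fold change was 0.48 (SE 0.19). Without control 6 and HD* 8 it was 0.30. TLN1 had 0.085 within cohort 5 and -0.40 within cohort 7a.

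Chromatin-modifying enzymes were lower for 39 of 41 (median -0.17, and -0.041 after TMM rescaling), and for 32 and 35 of 41 within cohorts 5 and 7a, where 37.5% and 32.6% of all genes were higher. The histone acetyltransferase KAT6A had a log2 fold change of -0.29 (SE 0.11) and the H3K4 methyltransferase KMT2C one of -0.32 (SE 0.16), both at an unadjusted p under 0.05. The list had 3 such members, all lower, beside 3.45% of all genes lower. KAT6A and KMT2C were negative in both cohorts, but were picked for a small p in a fit that held the same animals.

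Immediate early genes, which neuronal firing induces, were higher for 14 of 20 (median 0.099), but the median was -0.032 without control 6 and -0.064 with cohort as covariate. DUSP1 (-0.35, SE 0.19) and BTG2 (-0.26, SE 0.16) were lower. Genes of the glucocorticoid receptor and its targets were lower for 18 of 20 (median -0.11, and 0.015 after TMM rescaling), with medians of 0.12 in cohort 5 and -0.28 in cohort 7a. NR3C1, the receptor itself, ran from 19.4 to 32.4 TPM in controls (median 25.1) and from 11.9 to 28.6 TPM in HD* animals (median 21.8). HD* 1, HD* 6 and HD* 8 were below every control, for a log2 fold change of -0.30 (SE 0.15), and its target KLF15 had -0.26 (SE 0.13).

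Genes of mTOR and AKT signalling were lower for 23 of 35 (median -0.062, and 0.068 after TMM rescaling), with the lysosomal scaffold LAMTOR2 at 0.18 (SE 0.095) and the kinase subunit PIK3CA at -0.26 (SE 0.16). Clock genes were lower for 13 of 18 (median -0.053, and 0.075 after TMM rescaling), for 17 of 18 within cohort 5 and 14 of 18 within cohort 7a. BHLHE41, a repressor of the clock, was the 1 member at an unadjusted p under 0.05 (-0.27, SE 0.13), and PER3 had -0.24 (SE 0.19). Cholesterol synthesis and transport genes were lower for 19 of 26 (median -0.063, and 0.070 after TMM rescaling). The mevalonate pathway kinase PMVK was higher at an unadjusted p under 0.05 (0.31, SE 0.13), while lanosterol synthase, LSS, had -0.28 (SE 0.14). The lists of cortical excitatory neuron markers and of choroid plexus, ependymal, blood and meningeal markers had 3 tested members each, with medians of 0.18 and -0.057 in the fit without covariate and -0.19 and -0.24 with cohort. Relative to all genes they were 0.27 and 0.039 without covariate. The second median was 0.075 after TMM rescaling.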

How the data were processed

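RNA from the NAcc core of 24 macaques was measured by poly(A) RNA-Seq, 1 library per animal, so that the spread is between animals. Per the paper's methods and the submitters' processing notes, reads were aligned to the MacaM assembly with STAR 2.5.2b, keeping uniquely aligned reads only, and counted per gene with HTSeq 0.6.1p1, with FastQC and DESeq2 also named. The authors deposited 1 table of 17208 gene symbols. Its name speaks of normalized counts, but each library sums to between 999998 and 1000000 and low values share no step of 1 read, so the deposited values were taken as TPM. The step from counts to TPM and its gene lengths are not given in the sources used here. The sources differ on strandedness, so reads of overlapping antisense genes may not be told apart. No counts were used here: the study states a mean depth but none per library, and no interval covers counting error. Dates had replaced 27 of the symbols, and 2 were repeated.

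Values were taken to log2(TPM + 1), which understates fold changes of low genes, and genes averaging 10 TPM or more across all animals were fitted in limma 3.58.1 (R 4.3.3) with all 3 groups, without and with cohort, within cohorts 5 and 7a (13 animals), and with a cohort by group term. Moderated p-values were adjusted by Benjamini-Hochberg over all genes tested. The fits were also run on simulated, independent normal values. Recovery was required only for shifts far larger than the differences described here, and not for the cohort by group term. That check does not give the power for small differences. TMM factors trimmed 30% of log ratios and 5% of levels. Group medians, list scores and figures used pandas 2.3.3, numpy 2.4.6 and matplotlib 3.10.9 in Python 3.11.15. Alternatives changed the pseudocount, filter, scaling, cohort term, weights, samples and single animals. The authors' test was a count model in DESeq2. It could not be run on TPM, and limma was used in its place.

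Genes named were the 10 higher and 10 lower genes with the smallest p (5 and 5 with cohort), for every list the 3 most abundant and the 3 with the smallest p, and the cell type markers. The text gives a part of these, and some items are not reported here. The comparison, the lists and the markers (34 lists) were chosen with earlier results of these data known. No sequence is printed.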

Additional observations from a re-analysis of the deposited data

Results flagged for a closer look

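In 23 of 222 groups of 8 values (10.4%; chance alone gives about 1 in 20), 1 animal stood apart from the other 7 of its group, its gap to the nearest of them, as a share of the whole range, exceeding Dixon's 95% critical value for 8 samples. The groups were 77 genes, taken as log2(TPM + 1), and 34 list scores, in controls and in HD* animals. Gaps of genes are on that log scale and can be smaller in TPM. The groups share the same libraries, and many of the genes were picked for a small p. They are not independent, so 1 odd library counts many times and the share of 1 in 20 is no strict standard. Control 6 accounted for 10 of the 23. It was the lowest control for GCHFR (gap of 0.562 of the range), RGS14 (0.649), TAC1 (0.671), GABRD (0.551), CACNA1H (0.748) and the score of choroid plexus, ependymal, blood and meningeal markers (0.601). It was the highest control for MSN (0.641), SLC15A4 (0.662), KLF15 (0.636) and KCNJ10 (0.574). Control 8 was the lowest control for PPID (0.591) and for the chromatin-modifying enzyme score (0.723), and the highest for RPL36 (0.572) and for the score of respiratory complexes II to V (0.533). Control 2 was the lowest control for BHLHE41 (0.5264).

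Among HD* animals, HD* 4 was the highest for TRAF3 (0.549), AQP4 (0.538) and the scores of NRF2 and antioxidant defence (0.6004) and of ethanol, acetaldehyde and acetate metabolism (0.65), and the lowest for RGS14 (0.601). HD* 8 was the lowest for BHLHE41 (0.555) and for the scores of proteasome subunits (0.587) and of neuropeptide and secretory granule genes (0.674).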

How the results depend on the processing

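In each alternative tried for the fits without and with cohort 0 genes passed the adjusted test. The count at an unadjusted p under 0.05 (357) became 1025 with no filter, 775 with a filter of 1 TPM, 40 with 100 TPM, 232 with cohort, 215 with only the 16 animals, 82 with the 13 animals of cohorts 5 and 7a and cohort as covariate, 721 with array weights, 115 without control 6 and HD* 8, and 227 without the animals high in SLC17A7. The count with cohort (232) became 493 with a filter of 1 TPM, 1243 with array weights and 115 without control 6 and HD* 8. With 1 animal left out, the first ran from 129 to 1145 and the second from 86 (HD* 8) to 658 (control 8), with 89 without control 7, 111 without HD* 1, 152 without HD* 6, 154 without control 5, 481 without HD* 7, 539 without HD* 5 and 567 without HD* 4. The count for the difference between cohorts ran from 91 to 523, and its adjusted count from 0 to 1.

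ALDH2 without cohort (-0.071) became 0.064 with TMM rescaling, 0.00050 with cohort, 0.134 with both and 0.0265 in the 13 animals with cohort, and ran from -0.16 to 0.049 with 1 animal left out. TAC1 became -0.0285 with array weights. With cohort, ALDH2 (0.00050) became -0.00013 with a pseudocount of 8 and -0.0357 without control 6 and HD* 8, where PPP1R1B became -0.0271 and TAC1 -0.0395. Array weights gave -0.0787 for PPP1R1B, -0.064 for PENK and -0.12 for TAC1. With 1 animal left out, the ranges with cohort were -0.0836 to 0.166 for ALDH2, -0.0927 to 0.324 for PPP1R1B, -0.13 to 0.43 for PENK, -0.0179 to 0.238 for TAC1 and -0.0277 to 0.40 for GABRD. The cause was not tested. Elsewhere genes kept their direction in 1398 comparisons of a gene with another setting and in 2446 with 1 animal left out, and list medians moved by less than the spread between animals in 622 of their comparisons, with 19 exceptions. These moves could still turn a sign: without cohort 28 of 34 list medians changed sign under some setting, 11 of them with 1 animal left out, and with cohort 19 and 11.

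No paired analysis was possible because the replicate numbers only name animals in accession order. Depth per library is unknown, cohort 7b holds controls but no HD* animals, and cohort 7a has 2 controls, which limits what the design can separate. Exclusions of control 6, of HD* 8 and of animals high in SLC17A7 were chosen after seeing the data.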
